A study of Gallus gallus with 106 samples.

Results

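ESR1 and RARB are genes of the nuclear receptor family, and they were followed in primary satellite cells from the breast muscle of broiler chickens during differentiation at low and at normal oxygen. They were 2 of the 569 genes on a targeted RNA-seq panel, in which chosen transcripts are amplified from cDNA with primers across exon boundaries and sequenced. They were taken by symbol. They were picked because of how they moved in these samples, so all their differences between oxygen levels and times are given as a description, with no test. The values that led to the choice were the differences between hypoxia and normoxia and the changes over time.

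The cells were wild-type (WT) primary cells of the Pectoralis major. Satellite cells are the stem cells of skeletal muscle, which divide, differentiate and fuse into fibres. Hypoxic cells were held at 1% O2 in differentiation medium for 12, 24, 36 or 48 h, with 6 biological libraries at each time, and normoxic cells at 20% O2 for the same times, with 6 libraries each. A further 5 libraries were taken at 0 h, just before differentiation was induced; they are labelled normoxia and are the start of both courses, so the changes from 0 h in hypoxia and in normoxia share these libraries. Every one of the 53 libraries was sequenced as 2 technical replicates, whose counts were summed. The labels do not say whether the libraries came from separate birds or cultures, or whether birds were pooled, so p-values measure the spread between these libraries, which may be technical.

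Nuclear receptors are transcription factors that bind small lipophilic ligands and, with coactivator or corepressor proteins, switch target genes. ESR1 encodes oestrogen receptor alpha, which binds oestradiol and acts as a homodimer; in mammals it is expressed in skeletal muscle and its precursor cells. RARB encodes retinoic acid receptor beta, which binds DNA as a heterodimer with a retinoid X receptor, and in vertebrates its own gene is a classic target of retinoic acid. Retinoic acid is known to affect the differentiation of myoblasts. In the deposited table, on the galGal6 build, ESR1 is the transcript ENSGALT00000096830 on the plus strand of chromosome 3, from 49053965 to 49241486, with 10 exons. RARB is the transcript ENSGALT00000049834 on the plus strand of chromosome 2, from 37462364 to 37784432, also with 10 exons. Each gene had 1 row in the table, so no other isoform was measured.

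Libraries held between 171196 and 1448544 counts in total (median 759253). ESR1 held 82 to 1401 counts per library with a median of 442, and RARB 40 to 1995 with a median of 269. Levels are CPM, counts divided by the library total and by TMM factors, which correct for library composition. Amplicons differ in yield, so levels of different genes were not compared. All 12 satellite and muscle cell markers sought were on the panel and had counts. PAX7, the marker of satellite cells, averaged between 7556 and 9059 CPM in the 9 groups, and MYOD1, a myogenic determination factor, between 3835 and 4345 CPM. The 2 immune markers on the panel summed to at most 34.8 CPM in any library. The 6 fibroblast markers on the panel summed to between 21881 and 27875 CPM per library. The 4 markers of smooth muscle cells and pericytes summed to between 10380 and 14944 CPM. The share of such cells was not tested. In 17 of the 53 libraries the mean log2 CPM of 6 genes (MC5R, SSTR2, HRH2, THRSP, FBP2 and IRS1, chosen after their values were seen) stood above the rest, with no library between 7.03 and 7.67. These high-score libraries were 1, 1, 1 and 2 of 6 in hypoxia at 12, 24, 36 and 48 h, and 4, 1, 1 and 5 of 6 in normoxia at those times, with 1 of 5 at 0 h. They are spread unequally, so values without them are given beside the results they move. Without them 1 normoxic library is left at 48 h, so every comparison that uses that group then rests on it. In bulk RNA, fewer expressing cells and less RNA per cell cannot be told apart.

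The oestrogen receptor gene ESR1 was higher in hypoxia than in normoxia at 48 h. At 48 h its level was 966, 726, 1188, 992, 1011 and 768 CPM in the 6 hypoxic libraries, against 442, 498, 500, 423, 369 and 442 CPM in the 6 normoxic libraries. Every hypoxic library stood above every normoxic one. The fitted log2 change, hypoxia over normoxia, was 1.08 (SE 0.14), a 2.12-fold higher level in hypoxia and the 27th highest of the 453 genes tested. Of all genes tested, 22.3% were past an edgeR adjusted p of 0.05 there. Groups did not overlap for 15.5% of all genes. Without the high-score libraries its log2 change was 1.10, from 4 hypoxic libraries averaging 979 CPM and 1 normoxic library with 442 CPM. Satellite and muscle cell markers summed to between 36060 and 41472 CPM in these hypoxic libraries, against 32010 to 40089 CPM in the normoxic ones; their part in the ESR1 difference was not tested.

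**Figure D1:**
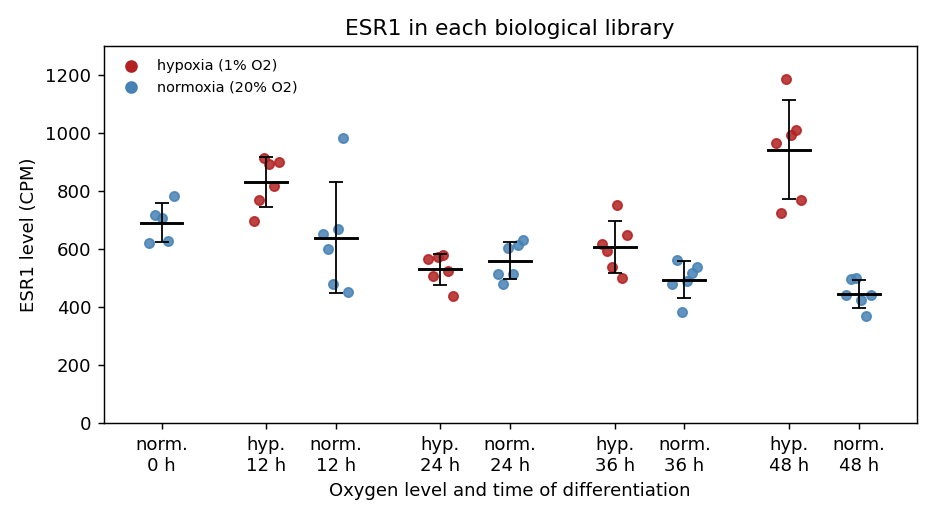
ESR1 level (CPM, y axis from 0) in each of the 53 biological libraries, by time of differentiation and oxygen level (x axis); red points are hypoxic and blue points normoxic libraries, the long bar is the group mean and the whiskers are 1 SD. The 6 hypoxic libraries at 48 h lie between 726 and 1188 CPM, above all 6 normoxic libraries at 48 h, which lie between 369 and 500 CPM.

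In hypoxia ESR1 did not follow 1 direction over time. Its mean level was 691 ± 68.0 CPM at 0 h (SD, n = 5), 832 ± 86.5 CPM at 12 h, 531 ± 53.6 CPM at 24 h, 608 ± 88.4 CPM at 36 h and 942 ± 170.4 CPM at 48 h (n = 6 each). All 6 libraries at 24 h were below the 0 h mean, and all 6 at 48 h were above it. In normoxia each mean over all libraries was lower than that of the time before. After the same 691 CPM at 0 h it was 639 ± 190.4 CPM at 12 h, 559.5 ± 64.1 CPM at 24 h, 495 ± 63.6 CPM at 36 h and 445 ± 49.3 CPM at 48 h (SD, n = 6 each). Of the libraries without a high score, the 4 at 0 h averaged 709 CPM and the 2 in normoxia at 12 h averaged 826 CPM, so the first step ran upward in them.

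Set against the 0 h libraries, which had 621, 719, 706, 628 and 784 CPM, 4 of the 6 hypoxic libraries at 48 h exceeded all of them and the groups overlapped. The log2 change, 48 h in hypoxia over 0 h, was 0.45 (SE 0.15), at 0.32 with technical replicate 1 alone and 0.61 with replicate 2 alone. All 6 normoxic libraries at 48 h were below every 0 h library, with a log2 change of -0.63 (SE 0.15). Over 48 h in hypoxia 44.2% of all genes tested passed the threshold, and over 48 h in normoxia 40.6%. ESR1 itself is given as a description, and its log2 changes in these courses had opposite signs. Groups that did not overlap made up 30.9% of genes in the first comparison and 31.6% in the second.

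The earlier hypoxia comparisons of ESR1 were smaller. At 12 h its level was 698, 769, 915, 895, 818 and 899 CPM in hypoxia, against 653, 599, 478, 668, 983 and 454 CPM in normoxia. All 6 hypoxic libraries exceeded the normoxic mean, but normoxic library 5 was above all of them, so the groups overlapped. The log2 change was 0.38 (SE 0.14). The 5 hypoxic libraries without a high score averaged 859 CPM at 12 h, against 826 CPM in the 2 normoxic libraries without one, and the 4 high-score normoxic libraries averaged 546 CPM. Without the high-score libraries the log2 change was 0.039. It was 0.55 without replicate 5. It also depended on the technical replicate, at 0.55 in replicate 1 alone and 0.13 in replicate 2 alone.

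At 24 h ESR1 differed least, with 438 to 578 CPM and a median of 544 CPM in hypoxia, against 481 to 633 CPM and a median of 559 CPM in normoxia. The groups overlapped, as did those of all but 7.28% of genes tested, and the log2 change was -0.07 (SE 0.14). At 36 h it had 617, 594, 537, 751, 499 and 647 CPM in hypoxia, against 479, 563, 382, 489, 519 and 538 CPM in normoxia. Of the hypoxic libraries at 36 h, 4 were above every normoxic one, the groups overlapped, as did those of all but 6.4% of genes tested, and the log2 change was 0.29 (SE 0.14). The effect of hypoxia at 48 h minus that at 12 h was 0.70 on the log2 scale (SE 0.20), where 9.27% of all genes tested passed the threshold, 7.28% with a higher and 1.99% with a lower effect at 48 h. This difference was 0.46 without replicate 5 and 1.07 without the high-score libraries.

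Ordered by mean level from low to high, the 9 groups of ESR1 were normoxia at 48 h, normoxia at 36 h, hypoxia at 24 h, normoxia at 24 h, hypoxia at 36 h, normoxia at 12 h, 0 h, hypoxia at 12 h and hypoxia at 48 h. Between hypoxia at 12 h and 0 h the means differed by 140.9 CPM, more than the larger SD of 86.5 CPM. The other 7 steps between neighbours were within the larger SD of the pair, and the ranges of all 8 neighbouring pairs overlapped.

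RARB varied more between libraries and between technical replicates than ESR1, and this bears on all its comparisons. The SD of the log2 difference between the 2 technical replicates of a library was 1.45 for RARB, the 11th largest of 453 genes, and 0.45 for ESR1, against a median of 0.34 over all genes tested. The technical replicates of RARB differed more than 2-fold in 20 of 53 libraries and more than 4-fold in 13. These folds were taken on the log2 scale with a prior count of 1. The widest gap was 9.82-fold, in hypoxia at 48 h library 2, where the replicates held 159 and 13 counts. For ESR1, 3 of 53 libraries exceeded 2-fold and the widest gap was 2.20-fold. Technical replicate 1 of ESR1 was the higher in 37 of 53 libraries, among them all 5 at 0 h and all 6 in hypoxia at 12 h; for RARB it was the higher in 27. The labels do not say at which step the technical replicates were divided.

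**Figure D2:**
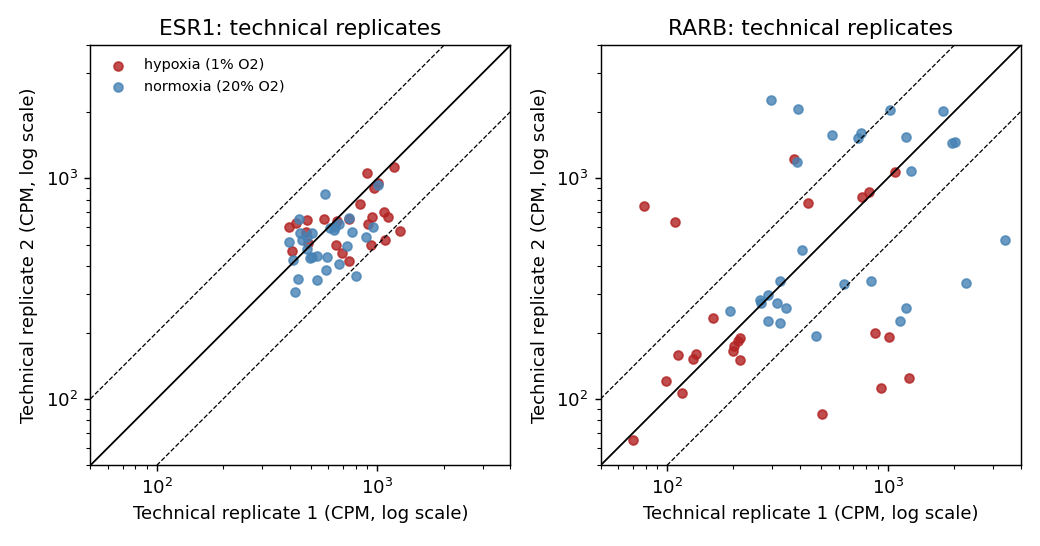
CPM in technical replicate 1 (x axis) and technical replicate 2 (y axis) of each of the 53 libraries, both axes on a log scale, for ESR1 (left panel) and RARB (right panel); red points are hypoxic and blue points normoxic libraries, the solid line marks equal values and the dashed lines a 2-fold difference. ESR1 points stay near or within the dashed lines, while 20 RARB libraries lie more than 2-fold apart.

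These technical differences were shared with other genes. Over the 53 libraries, the difference between technical replicates in RARB correlated at r above 0.8 with that in 86 other genes, with PDGFC, a growth factor gene, at 0.968 and FTH1, which encodes ferritin heavy chain, at the other end with -0.872. For ESR1, 3 genes exceeded 0.8, with SLC25A26, a mitochondrial carrier gene, at 0.829. These correlations describe 53 pairs that share libraries and depth.

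RARB was lower in hypoxia at 12 h. Its level was 674, 183, 187, 595, 568 and 199.9 CPM in the 6 hypoxic libraries, against 1152, 1337, 1671, 1902, 1068 and 1704 CPM in the 6 normoxic libraries. Every hypoxic library was below every normoxic one. The log2 change was -1.88 (SE 0.56), a 3.68-fold lower level and the 6th lowest of 453 genes. Of all genes tested, 17.9% were past the edgeR threshold at 12 h. Groups did not overlap for 13.9% of genes. Of the hypoxic libraries, 3 had 183 to 199.9 CPM and 3 had 568 to 674 CPM. In hypoxic library 1 the technical replicates had 1013 and 190.1 CPM, and in library 5 they had 934 and 112 CPM.

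The technical replicates of the normoxic libraries at 12 h were also far apart. They were 392 and 2052 CPM in library 1, 2264 and 334 CPM in library 2, and 3409 and 524 CPM in library 4. Taking the lower replicate of each library, the median was 163 CPM in hypoxia (range 112 to 435) and 541 CPM in normoxia (range 334 to 1464). Taking the higher one, it was 502 CPM in hypoxia (range 199 to 1013) and 2031 CPM in normoxia (range 1563 to 3409). The lower replicates of the 2 conditions thus overlapped and the higher ones did not. With replicate 1 alone the log2 change at 12 h was -1.80, and with replicate 2 alone it was -2.22. Without the high-score libraries it was -2.13, from 5 hypoxic libraries with a mean of 347 CPM and 2 normoxic libraries with a mean of 1485 CPM.

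**Figure D3:**
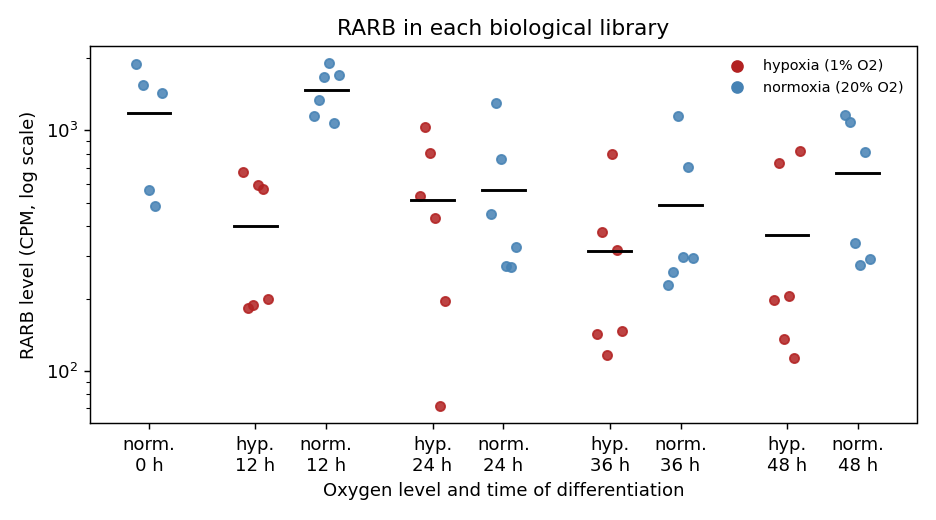
RARB level (CPM, log scale on the y axis) in each of the 53 biological libraries, by time of differentiation and oxygen level (x axis); red points are hypoxic and blue points normoxic libraries, and the bar is the group mean. At 12 h the 6 hypoxic libraries lie between 183 and 674 CPM, below the 6 normoxic libraries at 1068 to 1902 CPM, and at the later times the 2 conditions overlap.

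After 12 h the oxygen conditions overlapped for RARB. At 24 h it had 533, 1036, 802, 433, 71.5 and 195 CPM in hypoxia, against 449, 1297, 758, 272, 270.0 and 329 CPM in normoxia. Both groups spread widely and neither lay above the other, with a log2 change of -0.13 (SE 0.55), and it was 0.10 with technical replicate 1 alone. At 36 h it had 143, 377, 117, 795, 319 and 147 CPM in hypoxia, against 227, 257, 1149.8, 298, 701 and 294 CPM in normoxia. Of the hypoxic libraries 3 were below every normoxic one, and the log2 change was -0.66 (SE 0.55). It was -1.02 with technical replicate 1 alone and -0.32 with replicate 2 alone, -0.024 without replicate 3 and -1.25 without replicate 4. Library 4 was the highest of the hypoxic libraries and library 3 of the normoxic ones.

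At 48 h RARB had 196, 730.0, 136, 204, 114 and 819.9 CPM in hypoxia, against 1160.3, 1085, 341, 276, 814 and 293 CPM in normoxia. Hypoxic libraries 2 and 6 stood within the range of the normoxic libraries, and the other 4 were below all of them. The log2 change was -0.88 (SE 0.55), at -0.52 without replicate 1 and -1.45 without replicate 6. It depended on the technical replicate, at -0.49 with replicate 1 alone and -1.40 with replicate 2 alone, and it was -0.10 without the high-score libraries, a set with 4 hypoxic libraries with a mean of 296 CPM and 1 normoxic library with 293 CPM. The high-score libraries at 48 h averaged 508 CPM in hypoxia (n = 2) and 735 CPM in normoxia (n = 5).

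Over 48 h of hypoxia RARB was lower than at the start. The 0 h libraries had 1880.4, 1540.3, 566, 484 and 1427 CPM, and 4 of the 6 hypoxic libraries at 48 h were below all 5 of them. The log2 change, 48 h in hypoxia over 0 h, was -1.72 (SE 0.58), and it was -1.48 without 0 h library 1. Over 48 h in normoxia the log2 change was -0.83 (SE 0.57), with 3 of 6 libraries below every 0 h library, and it was -1.72 without the high-score libraries. Markers of endothelial cells, of which 4 of 6 sought were on the panel, also had lower sums at 48 h than at 0 h. Their summed level ranged from 207 to 585 CPM in hypoxia at 48 h and from 94.8 to 266 CPM in normoxia at 48 h, against 682 to 1464 CPM at 0 h, and the part of such cells in the RARB change was not tested. CDH5, which defines endothelial cells, averaged 30.8 CPM at 0 h, 12.9 CPM in hypoxia at 48 h and 14.9 CPM in normoxia at 48 h. In the same order VWF averaged 734, 130 and 62.1 CPM, and ENG 280, 191 and 78.6 CPM. PECAM1 averaged 2.6, 2.7 and 3.7 CPM and was not lower at 48 h.

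Ordered by mean level from low to high, the groups of RARB were hypoxia at 36 h (316 ± 257 CPM), hypoxia at 48 h (367 ± 319), hypoxia at 12 h (401 ± 234), normoxia at 36 h (488 ± 368), hypoxia at 24 h (512 ± 364), normoxia at 24 h (562 ± 404), normoxia at 48 h (662 ± 409), 0 h (1179.6 ± 621) and normoxia at 12 h (1472 ± 335), with SD and n = 6 each, or 5 at 0 h. No neighbouring pair differed by more than its larger SD, and all 8 pairs had overlapping ranges. The SD within a group was 22.8% to 87.1% of the mean for RARB and 9.84% to 29.8% for ESR1. On the log2 scale the SD between libraries of a group was 1.00 for RARB, the 18th largest of 453 genes, and 0.22 for ESR1, against a median of 0.24. The effect of hypoxia on RARB at 48 h minus that at 12 h was 0.99 (SE 0.77).

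The receptors did not share a pattern. Pearson's r between their mean log2 CPM was -0.177 over the 9 groups, and -0.229 over the deviations of the 53 libraries from their group means. The genes whose group means were most like those of ESR1 were PER3 (r = 0.962), FTO (0.901), WNT10A (0.882), NRF1 (0.868) and PNPLA2 (0.866), over 9 groups. PER3 is a component of the circadian clock, FTO encodes an RNA demethylase, WNT10A a Wnt ligand, NRF1 a transcription factor for nuclear genes of mitochondria, and PNPLA2 the adipose triglyceride lipase. Within groups the deviations of PER3 and FTO followed those of ESR1 at r = 0.815 and 0.850 over 53 libraries, while those of WNT10A did so at 0.363. The differences between technical replicates of these genes also followed those of ESR1, at r = 0.777 for FTO, 0.709 for PER3, 0.703 for NRF1, 0.582 for PNPLA2 and 0.551 for WNT10A. PER3 showed the same turn in hypoxia as ESR1. Its mean log2 CPM was 10.55 at 0 h and, in hypoxia, 11.11 at 12 h, 10.24 at 24 h, 10.58 at 36 h and 11.44 at 48 h. Lowest were LAPTM4A (-0.734), NFATC1 (-0.755) and COX3 (-0.759). Over the 9 groups the mean log2 CPM of LAPTM4A and NFATC1 spanned only 0.15 and 0.17. COX3 was low, at 3.00 to 4.47, and ESR1 ran from 8.80 to 9.86.

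For RARB the most alike were ELOVL1 (r = 0.965), UQCRFS1 (0.954), BECN1 (0.936), SLC31A1 (0.928) and JAK2 (0.918). ELOVL1 encodes a very long chain fatty acid elongase, UQCRFS1 the Rieske iron-sulfur subunit of respiratory complex III, BECN1 the autophagy protein Beclin 1, SLC31A1 a copper importer and JAK2 a cytokine receptor kinase. Within groups UQCRFS1 followed RARB at r = 0.923 and ELOVL1 at 0.703. The differences between technical replicates of all 5 also followed those of RARB, at r = 0.950 for UQCRFS1, 0.894 for SLC31A1, 0.839 for JAK2, 0.808 for BECN1 and 0.788 for ELOVL1. The genes of opposite pattern were COL5A1, a fibrillar collagen (-0.944), MYH15, a myosin heavy chain (-0.956), and ENO1, the glycolytic enzyme enolase (-0.970). Over the 9 groups their mean log2 CPM spanned 0.31, 0.27 and 1.45, while that of RARB ran from 7.98 to 10.49. Their technical differences followed those of RARB at -0.771 for MYH15, -0.599 for COL5A1 and -0.339 for ENO1. ENO1 was low, at 4.95 to 6.40 in mean log2 CPM. The SD of the log2 difference between its technical replicates was 0.84, against a median of 0.34 over all genes tested.

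**Figure D4:**
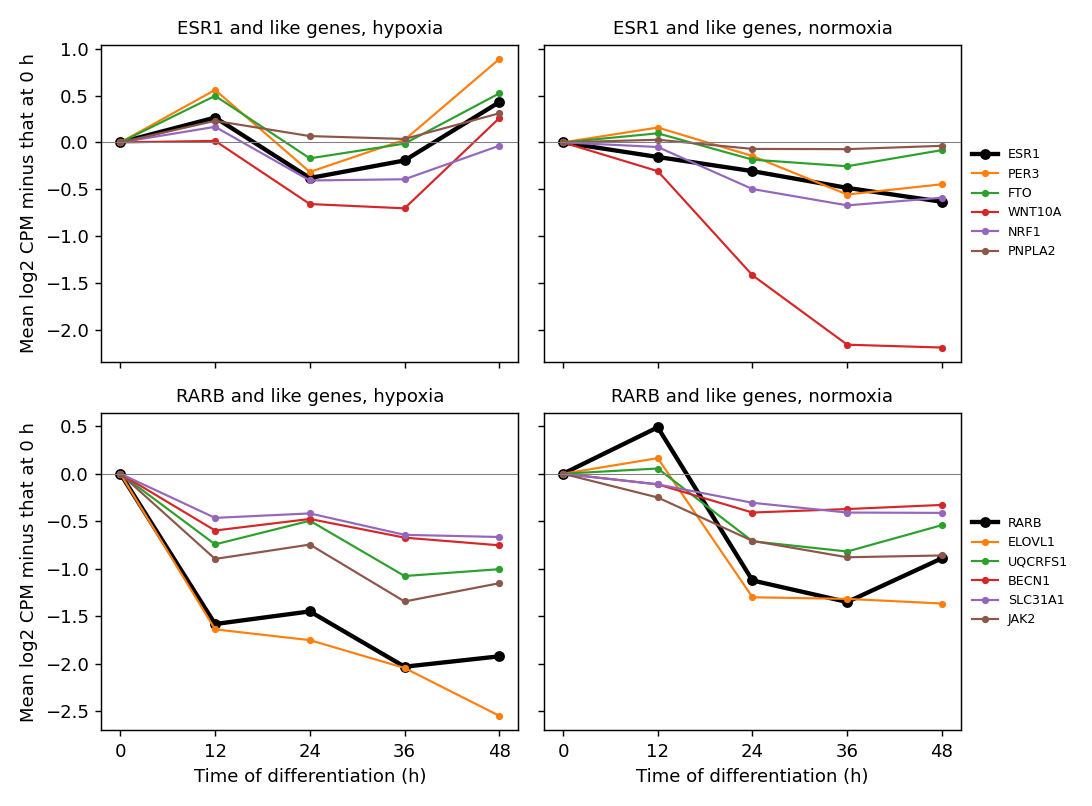
Mean log2 CPM minus that at 0 h (y axis) against time of differentiation in h (x axis) for ESR1 (top) and RARB (bottom), drawn in black, and the 5 genes with the most similar group means, drawn in colours; hypoxia is on the left and normoxia on the right, and both start from the same 0 h libraries. In hypoxia ESR1 and PER3 dip at 24 h and are highest at 48 h, and RARB and ELOVL1 are below their 0 h level at every later time.

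Of 46 nuclear receptor genes considered here 10 were on the panel, and all 8 besides ESR1 and RARB were tested. They are RXRG, a partner of the retinoic acid receptors, PPARA, PPARD and PPARG, which bind fatty acids, the steroid receptor genes PGR and NR3C1 (progesterone and glucocorticoid), NR1H3, an oxysterol receptor, and NR1D2, a repressor in the circadian clock. Of the 8, 1 was lower in hypoxia than in normoxia at 12 h, 24 h and 36 h each. At 48 h 1 of them was higher and 1 lower. Their median log2 change was -0.06, 0.05, 0.11 and 0.01 at 12, 24, 36 and 48 h, against 0.04, 0.01, 0.00 and 0.01 over all genes tested. Of all 453 genes tested, 7.51% were higher in hypoxia and 10.4% lower at 12 h, and 13% were higher and 9.27% lower at 48 h. At 24 h 18.5% of them passed the threshold, 9.93% higher and 8.61% lower, and at 36 h 16.3%, 6.18% higher and 10.2% lower.

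PPARA was the receptor that was lower in hypoxia at 3 times. It averaged 1075 ± 217 CPM in hypoxia and 1396 ± 195 CPM in normoxia at 24 h (SD, n = 6 each), a log2 change of -0.37 (SE 0.13; edgeR adjusted p = 0.0317), with 5 of 6 hypoxic libraries below the normoxic mean. The change was -0.50 (SE 0.13; edgeR adjusted p = 0.00274) at 36 h and -0.47 (SE 0.13; edgeR adjusted p = 0.00305) at 48 h, with all 6 hypoxic libraries below the normoxic mean both times. The call at 24 h was lost without replicate 5 and without replicate 6, where the edgeR adjusted p reached 0.209. It was also lost with scaling by reference genes, with either technical replicate alone and with only the groups compared. The call at 48 h was lost without the high-score libraries, a set with 1 normoxic library, where the log2 change was -0.50. PPARD, which is widely expressed in muscle, averaged 221 ± 49.6 CPM in hypoxia and 390.4 ± 99.1 CPM in normoxia at 12 h (SD, n = 6 each). Its log2 change was -0.82 (SE 0.30; edgeR adjusted p = 0.0473), and this call was lost on leaving out replicate 1, 2, 3, 4 or 6 in turn, where the adjusted p reached 0.140, and without the high-score libraries, at 0.233. It was also lost with scaling by reference genes, with no filter on low counts and with either technical replicate alone. NR1D2 was higher in hypoxia at 48 h, with 2196 ± 396 CPM in hypoxia and 1679 ± 121 CPM in normoxia (SD, n = 6 each). Its log2 change was 0.39 (SE 0.14, edgeR adjusted p = 0.0319). This call was lost without replicate 1, 3, 4 or 5, where the adjusted p reached 0.189. It was also lost with scaling by library totals or reference genes, with no filter on low counts and with technical replicate 1 alone, where the log2 change was 0.20. Without the high-score libraries, a set with 1 normoxic library, the call was lost and the log2 change was 0.27.

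The technical behaviour of the receptors also differed. Differences between technical replicates in RXRG and PPARD followed those of RARB at r = 0.888 and 0.875 over 53 libraries. Those of PPARA and NR1D2 followed ESR1, at r = 0.780 and 0.763.

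**Figure D5:**
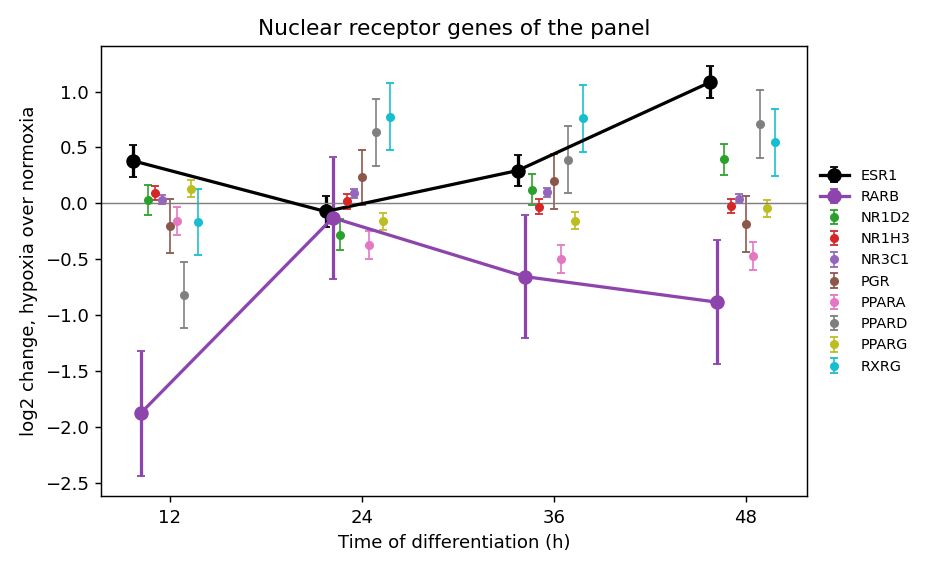
Log2 change, hypoxia over normoxia (y axis), at 12, 24, 36 and 48 h of differentiation (x axis) for 10 nuclear receptor genes of the panel; points are fitted values and bars are 1 SE, and ESR1 and RARB are joined by lines. ESR1 lies at 1.08 at 48 h and RARB at -1.88 at 12 h, while the other 8 receptors lie between -0.82 and 0.77.

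RXRG, which encodes a heterodimer partner of retinoic acid receptors, did not pass the test in any oxygen comparison, with log2 changes of -0.17 (SE 0.30), 0.77 (SE 0.30), 0.76 (SE 0.30) and 0.55 (SE 0.30) at 12, 24, 36 and 48 h. Over time it fell in both courses. It averaged 650.1 ± 204 CPM at 48 h in hypoxia and 444 ± 74.6 CPM at 48 h in normoxia (SD, n = 6 each), against 1289.8 ± 461 CPM at 0 h (n = 5). The log2 change was -0.99 (SE 0.31; edgeR adjusted p = 0.00738) in hypoxia and -1.54 (SE 0.31; edgeR adjusted p = 5.9e-05) in normoxia. The call in hypoxia was lost without replicate 2, at an adjusted p of 0.0521, and that in normoxia without the high-score libraries, at 0.135.

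Of the 8 other receptors, 1 rose and 3 fell over 48 h in hypoxia, and 1 rose and 2 fell in normoxia. Over all genes tested 19% rose and 25.2% fell in hypoxia, and 15.5% rose and 25.2% fell in normoxia. PGR, which in mammals and chickens is a classic target of oestrogen receptor alpha, fell in both courses. It averaged 98.3 ± 11.3 CPM at 48 h in hypoxia and 112 ± 26.3 CPM at 48 h in normoxia (SD, n = 6 each), against 479 ± 56.7 CPM at 0 h (n = 5). The log2 change was -2.28 (SE 0.26; edgeR adjusted p = 2.1e-10) in hypoxia and -2.10 (SE 0.26; edgeR adjusted p = 1.66e-09) in normoxia. Between the oxygen levels at 48 h its log2 change was -0.18 (SE 0.25; edgeR adjusted p = 0.702). PPARG, the regulator of fat cell differentiation, was the receptor that rose, by 0.71 (SE 0.08) in hypoxia and 0.76 (SE 0.08) in normoxia on the log2 scale. Summed levels of adipocyte markers, a list that holds PPARG, ranged from 18570.1 to 21816 CPM in hypoxia at 48 h and from 19907 to 22675 CPM in normoxia at 48 h, against 14680.0 to 16694 CPM at 0 h; their part in the PPARG change was not tested. PPARA fell in hypoxia by 0.72 on the log2 scale (SE 0.13).

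Of 30 genes of retinoid handling and known retinoic acid targets, RBP4A and RARRES2 were on the panel. RBP4A, which encodes a retinol-binding protein, was higher in hypoxia than in normoxia at all 4 times. RARRES2, which encodes the adipokine chemerin, did not pass the test at any of them. RBP4A averaged 1197 ± 126 CPM in hypoxia and 634 ± 191 CPM in normoxia at 12 h, and 1624 ± 287 CPM in hypoxia and 963 ± 153 CPM in normoxia at 48 h (SD, n = 6 each). Its log2 change was 0.92 (SE 0.15; edgeR adjusted p = 1.72e-05), 0.86 (SE 0.16; edgeR adjusted p = 2.36e-05), 0.64 (SE 0.15; edgeR adjusted p = 0.00193) and 0.76 (SE 0.15; edgeR adjusted p = 0.000128) at 12, 24, 36 and 48 h. All 6 hypoxic libraries were above the normoxic mean each time. Without the high-score libraries the calls at 12 and 48 h were lost, with log2 changes of 0.52 and 0.94. The value at 48 h then rests on 1 normoxic library. From 0 to 48 h RBP4A rose by 0.78 (SE 0.16) on the log2 scale in hypoxia. The difference between its technical replicates followed that of ESR1, at r = 0.742.

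Of 24 genes of oestrogen synthesis, its receptors and targets, PGR and CCND1 were on the panel. Neither passed the test between oxygen levels at any time. At 48 h CCND1, which encodes cyclin D1 and is an oestrogen target in mammalian breast cells, had a log2 change of 0.07 (SE 0.05; edgeR adjusted p = 0.375). Over 48 h in normoxia CCND1 fell, with 4095 ± 177 CPM at 48 h (SD, n = 6) against 4538 ± 254 CPM at 0 h (n = 5), a log2 change of -0.15 (SE 0.05; edgeR adjusted p = 0.0162). This call was lost without replicate 3 or 5, where the adjusted p reached 0.0844. It was also lost with scaling by reference genes, with no filter on low counts and with technical replicate 1 alone. Without the high-score libraries, a set with 1 normoxic library at 48 h, the call was lost and the log2 change was -0.07.

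Of 14 nuclear receptor coregulators sought, PPARGC1A, NCOA3, EP300 and SIRT1 were on the panel. PPARGC1A, a coactivator of PPARs and of oestrogen-related receptors in mitochondrial biogenesis, was lower in hypoxia than in normoxia at 12, 24 and 36 h. At 0 h it averaged 438 ± 79.6 CPM (SD, n = 5), and the means of both conditions were above that at these times. It averaged 1013 ± 194 CPM in hypoxia and 1802 ± 451 CPM in normoxia at 12 h, and 979.9 ± 247 CPM in hypoxia and 2071 ± 268 CPM in normoxia at 24 h (SD, n = 6 each). The log2 change was -0.83 (SE 0.15; edgeR adjusted p = 5.63e-05) at 12 h, -1.07 (SE 0.15; edgeR adjusted p = 1.69e-07) at 24 h and -0.42 (SE 0.15; edgeR adjusted p = 0.0466) at 36 h. The last call was lost without replicate 1, 2, 3, 5 or 6, where the adjusted p reached 0.191, without the high-score libraries, at 0.110, and with either technical replicate alone or scaling by library totals or reference genes. NCOA3, a p160 coactivator of steroid receptors, and EP300, a histone acetyltransferase, did not pass the test in any comparison.

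Over differentiation 2 of the 4 coregulators rose in each course. PPARGC1A averaged 2569 ± 365 CPM at 48 h in hypoxia and 2517 ± 148 CPM at 48 h in normoxia (SD, n = 6 each), against 438 ± 79.6 CPM at 0 h (n = 5), with log2 changes of 2.56 (SE 0.17) in hypoxia and 2.53 (SE 0.17) in normoxia. SIRT1, a deacetylase that acts on PPARGC1A in mammals, rose by 0.78 (SE 0.26; edgeR adjusted p = 0.0125) in hypoxia and by 1.07 (SE 0.26; edgeR adjusted p = 0.000787) in normoxia on the log2 scale. The hypoxic call of SIRT1 was lost without replicate 6, at an adjusted p of 0.0722, with scaling by reference genes and with technical replicate 2 alone. Both calls were lost without the high-score libraries, in hypoxia at an adjusted p of 0.0689. In normoxia the log2 change was then 1.15, from 1 library at 48 h.

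Genes of the hypoxia-inducible factor pathway, of which 8 of 16 sought were on the panel, served as a check of the oxygen labels. Of the 8, 3 were higher in hypoxia than in normoxia at 12 h and at 24 h. At 36 h 2 were higher and 1 lower, and at 48 h 2 were higher. Of all genes tested, 7.51%, 9.93%, 6.18% and 13% were higher at 12, 24, 36 and 48 h, and 10.2% were lower at 36 h. HIF1A was the gene that was lower in hypoxia, with a log2 change of -0.20 (SE 0.07, edgeR adjusted p = 0.0414). This call was lost without replicate 1, 2, 3, 5 or 6, where the adjusted p reached 0.162. At 48 h the log2 changes of VEGFA, PDK1, SLC2A1, BNIP3 and HIF1A were 0.02, -0.08, 0.26, 0.07 and -0.16, and none passed the test. HK2, which encodes the glycolytic enzyme hexokinase 2, averaged 1551 ± 433 CPM in hypoxia and 307 ± 46.8 CPM in normoxia at 48 h (SD, n = 6 each), a log2 change of 2.34 (SE 0.27; edgeR adjusted p = 1.25e-09). From 0 h, HK2 changed by 0.68 (SE 0.27) at 48 h in hypoxia and by -1.67 (SE 0.27) at 48 h in normoxia on the log2 scale. The call in hypoxia was lost without replicate 1, 3, 4 or 6, where the edgeR adjusted p reached 0.135. It was also lost with scaling by reference genes, technical replicate 2 alone, without the high-score libraries and without 0 h library 1. The call in normoxia was lost without the high-score libraries, where the log2 change was -1.43 from 1 library at 48 h. At 48 h BHLHE40, a transcriptional repressor induced by hypoxia, had a log2 change of 0.41 (SE 0.07; edgeR adjusted p = 4.51e-06), and ENO1 had one of 0.73 (SE 0.29; edgeR adjusted p = 0.0709). The call of HK2 at 48 h held without the high-score libraries, at an adjusted p of 0.0441, and that of BHLHE40 was lost, at 0.115. At 12 h, where RARB differed most, the changes were 1.34 (SE 0.29) for ENO1, 0.81 (SE 0.26) for HK2 and 0.24 (SE 0.07) for BHLHE40. ENO1 was low there, with 72.5 ± 13.8 CPM in hypoxia and 28.9 ± 7.3 CPM in normoxia (SD, n = 6 each). The call of HK2 at 12 h was lost without replicate 2, 3, 5 or 6, where the adjusted p reached 0.0779, and that of BHLHE40 without replicate 4, at 0.0874. Both were also lost with scaling by reference genes and with technical replicate 1 alone, and that of HK2 with technical replicate 2 alone. All 3 calls at 12 h were lost without the high-score libraries, at adjusted p of 0.0843 for ENO1, 0.129 for BHLHE40 and 0.366 for HK2.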

How the data were processed

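The authors deposited raw read counts of 590 transcripts in 106 value columns, which hold 53 biological libraries in 2 technical replicates each; value columns that matched no sample numbered 0. Coordinates are on galGal6, the build named in the submitters' processing notes; which aligner was used is not given in the sources used. Blank cells (1160, in 21 columns) were read as 0; ESR1 and RARB had none. Technical replicates were summed, as were transcripts of a gene. No molecular identifiers are stated, so reads are not independent molecules.

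Of the 569 genes, 453 passed filterByExpr, ESR1 and RARB among them, and 116 did not. Counts were scaled by TMM and tested in edgeR 4.0.16 (quasi-likelihood F test, R 4.3.3), with all 9 groups in 1 fit (44 residual degrees of freedom, common biological coefficient of variation 26.0%). A gene was called at an adjusted p under 0.05 (Benjamini-Hochberg, all 453 genes). The SE was obtained by dividing the absolute log2 change by the root of F. The fit was also run on counts simulated from its own estimates of spread. Those counts did not model technical replicates or the high-score libraries, so that run does not bear on them.

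ESR1, RARB and the gene lists were chosen with earlier results of these data known. Named are both receptors, the 5 genes most and the 3 least like each in group means, list members past the threshold, and the 3 largest changes of the hypoxia list. Genes given with values that missed the threshold, and the comparison of technical replicates, were added after their values were seen. Alternatives included DESeq2 1.42.0, other scalings, no filter, each technical replicate alone, a replicate block, only the groups compared and leaving out replicates. One gene of the receptor list is not reported here. Gene symbols of both receptors matched RefSeq.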

Additional observations from a re-analysis of the deposited data

Results flagged for a closer look

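ESR1 changed in opposite directions over 48 h in the oxygen conditions. Its log2 change from 0 h was 0.45 at 48 h in hypoxia, with 6 of 6 libraries above the 0 h mean, and -0.63 at 48 h in normoxia, with 6 of 6 libraries below it. The hypoxic libraries overlapped those at 0 h, and the normoxic ones did not. With technical replicate 1 alone the changes were 0.32 and -0.69, and with replicate 2 alone 0.61 and -0.48. Both comparisons share the 5 libraries at 0 h. The difference between them is thus the log2 change of hypoxia over normoxia at 48 h, 1.08 (SE 0.14). It is not a separate result and was not tested.

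For 3 genes of the lists the effect of hypoxia differed between 48 h and 12 h by a test of that difference, in which 9.27% of all genes tested passed. They were 1 of the 8 other receptors, 1 of the 4 coregulators and 1 of the 8 genes of the hypoxia list. None of the 2 retinoid and 2 oestrogen genes passed. PPARD had a difference of 1.53 (SE 0.42; edgeR adjusted p = 0.0125) on the log2 scale, the effect at 48 h minus that at 12 h. It had effects of 0.71 at 48 h and -0.82 at 12 h, and the call was lost without replicate 4 or 6, where the adjusted p reached 0.0878. The PPARD call was also lost with scaling by reference genes and with technical replicate 2 alone. HK2 had a difference of 1.53 (SE 0.37; edgeR adjusted p = 0.00322), and PPARGC1A one of 0.87 (SE 0.21; edgeR adjusted p = 0.0038). The HK2 call was lost with technical replicate 2 alone, and the PPARGC1A call with technical replicate 1 alone. All 3 calls were lost without the high-score libraries.

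No library of ESR1 or RARB stood apart from its group by Dixon's test, in 18 groups tested. The test looks only at the most extreme library, so it cannot find several that lie apart together. RARB in hypoxia at 48 h had 730 and 820 CPM in libraries 2 and 6, against 114 to 204 CPM in the rest.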

How the results depend on the processing

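The 7 log2 changes or differences of each receptor, 14 in all, were recomputed under 16 alternatives, and 222 of 224 values kept their sign; the other 2 were at 24 h, where both receptors differed least. Of the 224, 7 values moved by more than the gene's own SD between libraries of a group. That SD was 0.22 for ESR1 and 1.00 for RARB on the log2 scale. With so wide a limit, the move of RARB at 48 h from -0.88 to -0.10 was not counted. ESR1 at 12 h was 0.13 with technical replicate 2 alone and 0.039 without the high-score libraries (0.28 to 0.55 with 1 replicate number left out). Its effect at 48 h minus that at 12 h was 0.45 with technical replicate 1 alone, 0.96 with replicate 2 alone and 1.07 without the high-score libraries (0.46 to 0.86 with 1 replicate number left out). The same difference for RARB was 2.02 without the high-score libraries (0.25 to 1.64 with 1 replicate number left out). Leaving out the high-score libraries, or 0 h library 1, was added after seeing the data.

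Counts of genes called moved more. At 12 h, 81 genes were called, and 42 with scaling by 7 reference genes, 47 with technical replicate 1 alone, 131 with only the groups compared, 24 without the high-score libraries and 45 to 91 with 1 replicate number left out (47, 47 and 45 without replicates 2, 3 and 6). There 34 were higher in hypoxia and 47 lower, against 9 and 33 with reference genes and 26 and 63 with DESeq2. The median log2 change of all genes was 0.04, and -0.08 with reference genes. At 24 h the count was 84, and 52 with reference genes, 55 and 49 with technical replicates 1 and 2 alone, 42 with only the groups compared and 59 to 80 with 1 replicate number left out. At 36 h it was 74, and 39 with technical replicate 2 alone, 33 with only the groups compared and 53 to 97 with 1 left out. At 48 h it was 101, and 22 without the high-score libraries and 82 to 100 with 1 left out. From 0 to 48 h in normoxia it was 184, and 68 without the high-score libraries. For the difference of effects it was 42, and 20 with reference genes, 24 with technical replicate 2 alone, 75 with only the groups compared and 22 (without replicate 4) to 40 with 1 left out. Without the high-score libraries edgeR called 0 genes there, with 38 at an unadjusted p under 0.05; no other tool was run on that set. The causes were not tested, but leaving out libraries also leaves fewer samples.

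The labels do not say whether equal replicate numbers mark paired libraries. Correlations of same-numbered libraries ran from -0.32 to 0.777, with a median of 0.107. They were above 0.1 in 12 of 24 pairs, and a library correlated best with its own number in 7 of 24. With the replicate block, ESR1 at 48 h was 1.08 and RARB at 12 h was -1.88. Genes called then numbered 110 at 12 h and 108 at 48 h, against 81 and 101 without the block. Of the list genes, the block ended 2 calls, those of PPARGC1A at 36 h (edgeR adjusted p = 0.0564) and VEGFA at 24 h (edgeR adjusted p = 0.0546). The alternative of each transcript alone did not apply, since each receptor has 1 row.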
